A study of Homo sapiens with 6 samples.

Results

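The genes described here encode the machinery that brings nuclear-encoded proteins into mitochondria. They were chosen by name: every TIMM and TOMM gene with a number in its symbol, together with SAMM50, MTX1, MTX2, MTX3, GRPEL1, GRPEL2, DNAJC19, PAM16, CHCHD4, GFER, PMPCA and PMPCB, and without rows named as pseudogenes. This gave 37 genes of 58395 in the count files. Their RNA was sequenced in THP-1, a human acute monocytic leukaemia line, in 3 libraries of cells given 1 µM monensin for 16 h and 3 libraries of cells left without exposure. Monensin is an ionophore that exchanges sodium ions for protons across membranes. Both groups grew in the same RPMI medium with serum, and the labels name no vehicle for the untreated cells, so an effect of a vehicle and one of monensin cannot be told apart. Nothing in the labels says that the 3 libraries of a group came from separate cultures, and p-values then measure the spread between these libraries, which may be technical.

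Most mitochondrial proteins are made in the cytosol and enter through the TOM complex of the outer membrane. From there the SAM complex inserts barrel-shaped proteins into the outer membrane, CHCHD4 and GFER fold small proteins of the intermembrane space by making disulfide bonds, and the small TIM chaperones carry hydrophobic proteins to the TIM22 translocase of the inner membrane. The TIM23 translocase and its matrix motor take in proteins with a cleavable presequence, which the processing peptidase PMPCA-PMPCB then removes. Import into the matrix depends on the electrical potential of the inner membrane.

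Gene counts summed to between 22975888 and 24774546 in the monensin libraries and between 24159573 and 25710513 in the untreated libraries. All 12 markers of the monocytic line passed the filter on low counts, with a summed level of 2017 to 2108 CPM in the monensin libraries and 2141 to 2203 CPM in the untreated libraries. The CPM given for genes and lists are counts scaled to the library size after TMM adjustment in the edgeR fit. Whether the groups of a gene overlap is judged on these values. The sum covers opposite changes: 6 of these markers rose, 4 fell and 2 were not called by the edgeR test described below, among them LYZ (log2 fold change -1.44), CEBPA (0.68), CD68 (1.10), MPO (-0.63) and CD14 (2.30), named after their values were seen. The part of these changes in the results was not tested. Markers of other cell types summed to at most 3.51 CPM per list in any library. The lymphoid list summed to 2.60 to 2.87 CPM in monensin and 1.46 to 2.00 CPM in untreated libraries. The erythroid and megakaryocytic list held 2.36 to 2.73 CPM in monensin and 0.729 to 1.09 CPM in untreated libraries, and the epithelial list 0.429 to 0.857 CPM in monensin and 0.386 to 0.601 CPM in untreated libraries. The fibroblast list held 3.08 to 3.51 CPM in monensin and 1.93 to 2.77 CPM in untreated libraries. The defining markers CD3E, HBB, HBA1, PF4, EPCAM, KRT18, CDH1, COL1A2 and COL3A1 had 0 counts in all 6 libraries.

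After monensin, 19 of the 35 import genes that could be tested fell and 6 rose, while 10 were not called, by edgeR's quasi-likelihood test at an adjusted p under 0.05 over all 16542 tested genes. The median log2 fold change of the 35 genes was -0.38, beside 0.02 for all tested genes. Over all tested genes 33.7% were lowered, 34.1% raised and 67.8% were called in either direction, against 54.3% lowered and 17.1% raised of the tested import genes. TIMM21, a subunit of the TIM23 translocase, and TIMM8A, a small TIM chaperone, had the lowest fold changes as reported, and GRPEL2 and TIMM44 of the import motor the highest. With trends over GC content and exonic length removed the lowest was TOMM34, at a log2 fold change of -0.89 (SE 0.046). TIMM8A, at -0.87 (SE 0.058), differed from it by less than the SE of either. TIMM44, at 0.18 (SE 0.047), then stood below TOMM7 and TIMM9. From TIMM10B, at 0.20 (SE 0.050), it differed by less than the SE of either. No member reached a 2-fold change as reported, which 13.3% of all tested genes did, but TIMM21 passed it in 3 alternatives, with DESeq2, without untreated library 3 and, at a log2 fold change of -1.02, without monensin library 2. Further, 0 of the 37 genes are in the authors' deposited table of 2410 regulated genes, all of which exceed an absolute log2 fold change of 1. The libraries of the groups did not overlap for 27 of the 35 genes (77.1%), against 71.1% of all tested genes. In bulk RNA, fewer cells that express a gene and less of its RNA per cell cannot be told apart.

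**Figure D1:**
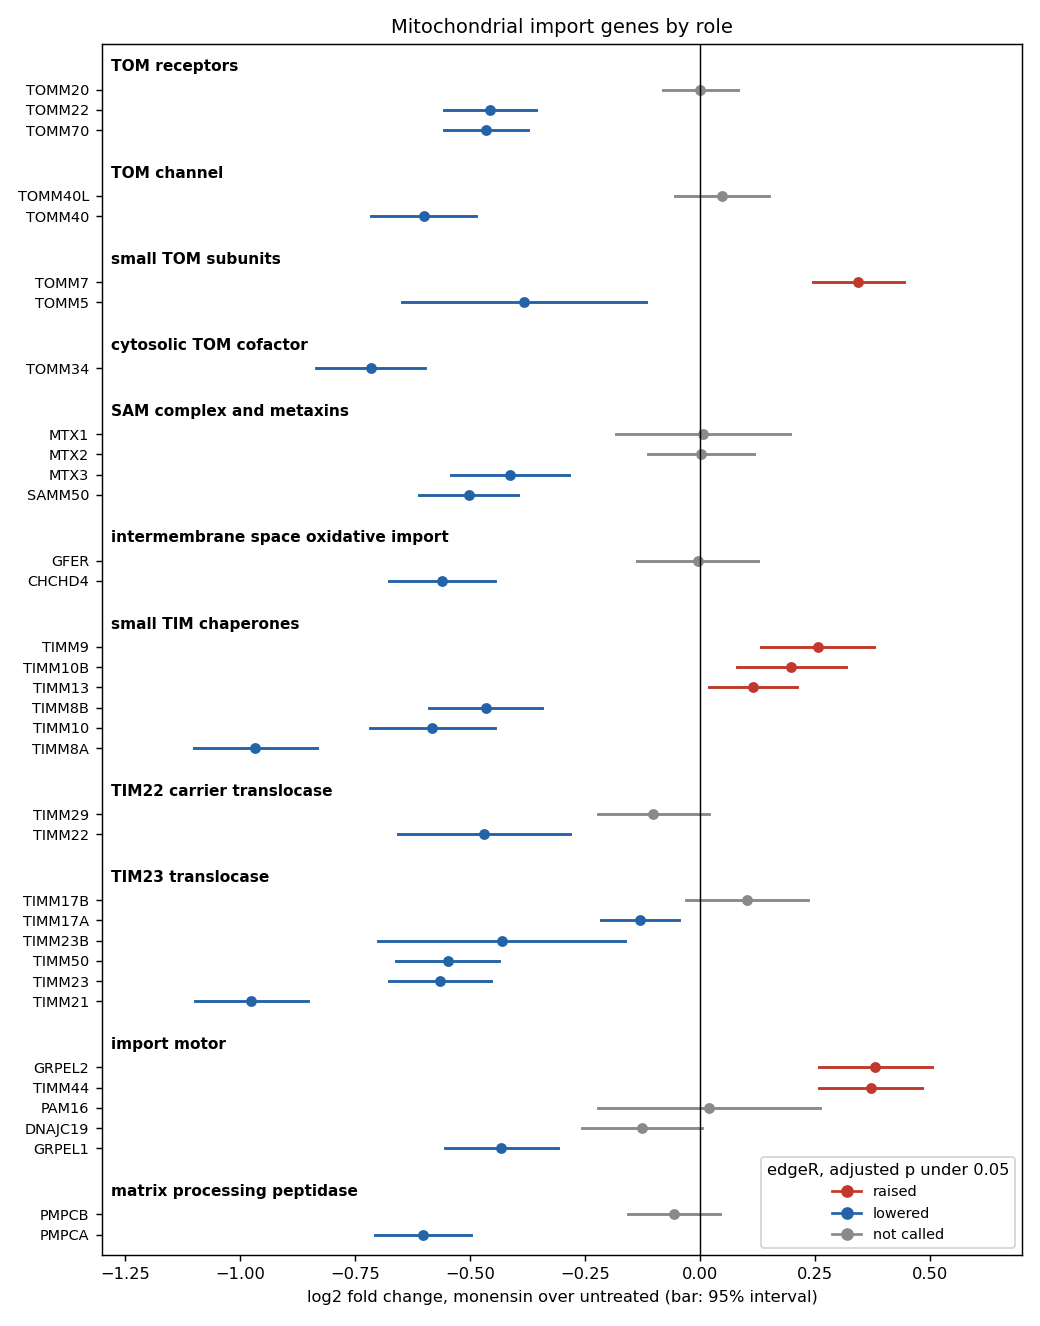
Log2 fold change of monensin over untreated libraries for the 35 tested import genes, grouped by role, with 95% intervals as bars and colour for the edgeR call. Each of the 11 role groups holds at least 1 of the 19 lowered genes, and the 6 raised genes are TOMM7, TIMM9, TIMM10B, TIMM13, GRPEL2 and TIMM44.

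Of the members, 2 were not tested. TOMM6, a small TOM subunit, had 0 counts in all 6 libraries, and the whole of its 637 exonic bases is also annotated to AL365205.1 on the same strand in GENCODE 29. Reads there fall on both genes, so the 0 does not measure TOMM6. TOMM20L, a relative of the receptor TOMM20, had 5, 1 and 3 counts in the monensin libraries and 1, 0 and 3 counts in the untreated libraries. The tested members had between 82 and 14621 counts in a library. Together the 37 members held 2467 ± 62.4 CPM in the monensin libraries and 2859 ± 40.5 CPM in the untreated libraries (mean ± SD, n = 3). The gap was much smaller in TPM (described below). These scale counts by gene length and by the library's own total of such values, without the TMM adjustment. Their summed TPM were 3195, 3218 and 3241 in the monensin libraries, against 3249, 3250 and 3254 in the untreated libraries. The size of the fall in the sum thus depended on the scaling.

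The 37 genes lie on 18 chromosomes, with 5 on chromosome 19 (TIMM13, TIMM44, TIMM50, TIMM29 and TOMM40) and 2 on the X chromosome (TIMM8A and TIMM17B). Promoter windows of 300 bases, from 250 before the RefSeq start of the gene to 50 after it, were found in the RefSeq table (GRCh38.p14) for 34 members, as 37 windows. The letters CCGGAAGT, the core of ETS family sites, stood on either strand in 9 of these windows (24.3%), against 4.14% of all windows in the table and 7.17% of windows of tested genes. The letters of the NRF1 site (GCGC, any 2 bases, GCGC), the same on either strand, stood in 9 windows (24.3%), against 8.32% of all windows and 13.4% of windows of tested genes. The letters TGATGNAA of the composite C/EBP-ATF element stood in 2 (5.41%), those of PMPCB and TIMM22, against 3.62% of all windows and 1.95% of windows of tested genes. Holders of the ETS letters were in every class: GRPEL2 and TIMM10B were raised, MTX3, TIMM10 and TOMM70 were lowered, MTX2, TIMM29 and TOMM20 were not called, and TOMM6 was not tested. NRF1 letters were likewise held by raised GRPEL2 and TOMM7, by lowered CHCHD4, TOMM34 and TOMM40, and by MTX2, PAM16, TIMM29 and TOMM20, which were not called.

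The 160 bases before the RefSeq start are shown for the 3 most raised and the 3 most lowered members as reported, so that their letters can be compared. TIMM10B and TIMM10 follow because they are a related pair, went in opposite directions and both hold ETS letters. This pair was chosen after its values were seen. Capitals mark the 3 searched motifs, which do not overlap each other here, and each sequence reads 5′ to 3′ on the strand of the gene. The stretches lie at chr5:149345339-149345498, plus strand (GRPEL2), chr19:7943667-7943826, minus strand (TIMM44), chr7:22822850-22823009, minus strand (TOMM7), chr18:74148363-74148522, plus strand (TIMM21), chrX:101348743-101348902, minus strand (TIMM8A), chr20:44960398-44960557, minus strand (TOMM34), chr11:6481341-6481500, plus strand (TIMM10B) and chr11:57530755-57530914, minus strand (TIMM10).
GRPEL2: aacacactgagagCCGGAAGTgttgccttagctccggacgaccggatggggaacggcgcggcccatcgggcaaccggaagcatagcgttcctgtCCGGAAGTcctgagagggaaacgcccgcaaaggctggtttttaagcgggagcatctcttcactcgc
TIMM44: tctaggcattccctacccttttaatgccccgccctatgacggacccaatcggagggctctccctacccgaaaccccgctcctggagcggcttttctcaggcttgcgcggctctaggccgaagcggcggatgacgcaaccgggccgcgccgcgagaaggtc
TOMM7: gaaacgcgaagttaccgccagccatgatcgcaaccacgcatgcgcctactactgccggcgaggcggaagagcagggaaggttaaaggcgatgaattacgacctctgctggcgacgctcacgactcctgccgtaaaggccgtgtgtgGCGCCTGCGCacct
TIMM21: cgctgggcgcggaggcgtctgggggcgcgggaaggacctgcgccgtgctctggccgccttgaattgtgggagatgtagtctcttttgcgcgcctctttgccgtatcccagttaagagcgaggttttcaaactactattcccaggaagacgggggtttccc
TIMM8A: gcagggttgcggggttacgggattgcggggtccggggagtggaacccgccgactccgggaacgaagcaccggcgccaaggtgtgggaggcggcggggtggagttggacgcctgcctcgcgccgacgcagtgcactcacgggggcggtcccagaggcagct
TOMM34: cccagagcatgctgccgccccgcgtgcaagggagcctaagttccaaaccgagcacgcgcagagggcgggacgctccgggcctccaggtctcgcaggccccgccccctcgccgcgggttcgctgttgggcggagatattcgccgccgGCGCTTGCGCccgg
TIMM10B: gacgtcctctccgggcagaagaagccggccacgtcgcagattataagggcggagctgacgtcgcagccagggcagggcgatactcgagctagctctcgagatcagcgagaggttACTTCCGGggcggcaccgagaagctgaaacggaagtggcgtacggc
TIMM10: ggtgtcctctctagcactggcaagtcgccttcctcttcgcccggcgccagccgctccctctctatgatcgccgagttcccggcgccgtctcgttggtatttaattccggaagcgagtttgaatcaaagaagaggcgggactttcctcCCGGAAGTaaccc
GRPEL2 holds the ETS letters at 2 places in this stretch, and TIMM44, TIMM21 and TIMM8A hold none of the 3 motifs in it. A match is a description of letters, and no match says only that these letters are not in the window.

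The TOM complex is the entry gate of the outer membrane, and of its receptor genes TOMM22 and TOMM70 fell while TOMM20 was not called. TOMM70, the receptor for carrier proteins that arrive with cytosolic chaperones, had 112, 109 and 108 CPM in the monensin libraries, against 150.4, 156 and 148 CPM in the untreated libraries (log2 fold change -0.47, SE 0.043, adjusted p = 1.26e-07). TOMM22, the central receptor that also organises the complex, had 98.4, 97.9 and 107 CPM in the monensin libraries, against 142, 137 and 137 CPM in the untreated libraries (log2 fold change -0.46, SE 0.047, adjusted p = 4.05e-07). In both genes each monensin library was below each untreated library. The presequence receptor TOMM20 had 569.6, 584 and 582 CPM in the monensin libraries, against 558, 593 and 584 CPM in the untreated libraries, and its groups overlapped (log2 fold change 0.00014, SE 0.038, adjusted p = 0.998, 95% interval from -0.081 to 0.082). With trends over GC content and exonic length removed, TOMM20 was called raised, at a log2 fold change of 0.13 (adjusted p = 0.00334), and it was also called raised under scaling by total counts alone, at 0.086 (adjusted p = 0.0463).

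TOMM40 forms the pore through which nearly all imported proteins pass, and it fell to 65.9% of its untreated level. TOMM40, on chromosome 19 from 44890569 to 44903689, had 156, 161 and 177 CPM in the monensin libraries, against 265, 245 and 238 CPM in the untreated libraries (log2 fold change -0.60, SE 0.053, adjusted p = 7.55e-08). The groups stood apart. Its relative TOMM40L had 78.4, 79.4 and 84.7 CPM in the monensin libraries, against 78.1, 76.5 and 79.9 CPM in the untreated libraries and was not called (log2 fold change 0.047, SE 0.048, adjusted p = 0.393). With GC and length trends removed the log2 fold change of TOMM40L was -0.10 (adjusted p = 0.0293), and under total counts 0.13 (adjusted p = 0.0199), so its direction turned with the scaling. Of TOMM40L's exonic bases, 20.1% are shared on the other strand with NR1I3, and the strand setting of the counting is not given.

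The small TOM subunits, which stabilise the complex, went in both directions. TOMM7, a subunit that also holds PINK1 at the outer membrane of damaged mitochondria, rose, with 125, 125 and 133 CPM in the monensin libraries, against 105, 98.6 and 98.4 CPM in the untreated libraries (log2 fold change 0.34, SE 0.046, adjusted p = 7.98e-06). All 3 monensin libraries were above all 3 untreated libraries, at 1.27 times the untreated level. TOMM5 had 3.19, 3.32 and 3.51 CPM in the monensin libraries, against 4.41, 4.29 and 4.37 CPM in the untreated libraries (log2 fold change -0.38, SE 0.12, adjusted p = 0.0127). It was called lowered, but with DESeq2 (adjusted p = 0.0780) and with GC and length trends removed (adjusted p = 0.0964) it was not. Of its exonic bases 18.7% are shared with other genes on its strand. TOMM34, a cytosolic protein that binds chaperones and preproteins before entry, fell further than any TOM subunit tested, with 45.0, 45.2 and 51.2 CPM in the monensin libraries, against 76.2, 78.8 and 76.9 CPM in the untreated libraries (log2 fold change -0.72, SE 0.056, adjusted p = 1.70e-08). Its groups stood apart, at 60.9% of the untreated level in monensin libraries.

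The SAM complex inserts barrel proteins such as the TOM channel itself, and its core gene SAMM50 and the metaxin gene MTX3 fell, while MTX1 and MTX2 were not called. SAMM50 had 68.7, 72.2 and 77.4 CPM in the monensin libraries, against 105, 102 and 103 CPM in the untreated libraries (log2 fold change -0.50, SE 0.050, adjusted p = 2.82e-07). MTX3 had 31.1, 34.1 and 30.6 CPM in the monensin libraries, against 41.0, 41.8 and 44.8 CPM in the untreated libraries (log2 fold change -0.41, SE 0.060, adjusted p = 1.84e-05), and its log2 fold change was -0.16 with GC and length trends removed. Neither gene's groups overlapped. MTX1 had 16.9, 15.4 and 20.4 CPM in the monensin libraries, against 18.0, 17.7 and 16.7 CPM in the untreated libraries (log2 fold change 0.0059, SE 0.089, adjusted p = 0.958, 95% interval from -0.18 to 0.20). The groups overlapped, and counts of MTX1 are uncertain because a near-identical pseudogene copy exists. Also, 21.9% of its exonic bases are shared on the other strand with THBS3, GBAP1 and AC234582.2, and the strand setting of the counting is not given. MTX2 had 32.2 ± 0.371 CPM in the monensin libraries and 32.2 ± 0.945 CPM in the untreated libraries (SD, n = 3 each), with a log2 fold change of 0.0016 and a 95% interval from -0.11 to 0.12.

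In the disulfide relay of the intermembrane space, the oxidoreductase CHCHD4 fell and GFER, which reoxidises it, was not called. CHCHD4 had 26.1, 25.2 and 25.1 CPM in the monensin libraries, against 37.1, 37.4 and 38.2 CPM in the untreated libraries (log2 fold change -0.56, SE 0.054, adjusted p = 2.04e-07). The libraries of each group lay close together and the groups stood apart. GFER had 30.9, 29.2 and 32.8 CPM in the monensin libraries, against 31.7, 32.0 and 29.5 CPM in the untreated libraries and overlapping groups (log2 fold change -0.0058, SE 0.062, adjusted p = 0.940, 95% interval from -0.14 to 0.13). With GC and length trends removed GFER was called lowered, at a log2 fold change of -0.28 (adjusted p = 0.000239); its longest transcript has 62.0% GC, against a median of 47.9% over tested genes. Of GFER's exonic bases, 25.9% are shared with AC005606.2 on the other strand, and the sources used here do not give the strand setting of the counting.

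The small TIM chaperones form 2 related assemblies, TIMM9 with TIMM10 and TIMM8A with TIMM13, that shield hydrophobic proteins between the membranes. Of these 6 genes, 3 fell and 3 rose, and no group overlapped for any of them in the reported fit. TIMM8A, on the X chromosome from 101345659 to 101349196 and mutated in a deafness-dystonia syndrome, had 13.8, 13.9 and 13.7 CPM in the monensin libraries, against 28.1, 26.2 and 26.7 CPM in the untreated libraries (log2 fold change -0.97, SE 0.063, adjusted p = 2.13e-09). The monensin libraries stood at 51.2% of the untreated level. TIMM13, which pairs with TIMM8A, had 97.0, 100.5 and 101 CPM in the monensin libraries, against 94.8, 91.0 and 89.5 CPM in the untreated libraries (log2 fold change 0.11, SE 0.045, adjusted p = 0.0330). The raised call was lost in 11 of 16 alternatives, among them the fits without monensin library 2 (adjusted p = 0.123), monensin library 3 (0.0604), untreated library 2 (0.132) and untreated library 3 (0.157). The log2 fold change of TIMM13 was 0.20 under total counts, and -0.19 and called lowered (adjusted p = 0.000484) with GC and length trends removed. The longest TIMM13 transcript has 63.6% GC, the highest of the members. TIMM13 shares 13.0% of its exonic bases with LMNB2 on its own strand and 15.9% with TMPRSS9 on the other strand. LMNB2 had 6497, 6677 and 5812 counts in the monensin libraries and 9114, 8708 and 9560 counts in the untreated libraries. TMPRSS9 had 194, 235 and 208 counts in the monensin libraries and 18, 14 and 14 counts in the untreated libraries. The part of the reads of either gene in the result was not tested.

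TIMM10 and TIMM9, the partners of the other assembly, also separated. TIMM10 had 31.3, 34.3 and 36.8 CPM in the monensin libraries, against 52.6, 52.5 and 48.1 CPM in the untreated libraries (log2 fold change -0.58, SE 0.064, adjusted p = 8.35e-07). TIMM9 had 34.1, 35.0 and 34.9 CPM in the monensin libraries, against 30.2, 29.6 and 27.3 CPM in the untreated libraries (log2 fold change 0.26, SE 0.057, adjusted p = 0.00102). TIMM10 was lower in every monensin library and TIMM9 was higher in every one. TIMM10B, which docks the chaperones at the TIM22 translocase, rose, with 41.3, 39.9 and 38.6 CPM in the monensin libraries, against 35.7, 35.5 and 33.3 CPM in the untreated libraries (log2 fold change 0.20, SE 0.056, adjusted p = 0.00522). TIMM8B, a relative of TIMM8A, fell, with 28.7, 31.7 and 31.5 CPM in the monensin libraries, against 43.7, 41.6 and 41.5 CPM in the untreated libraries (log2 fold change -0.47, SE 0.058, adjusted p = 3.30e-06). Exonic bases shared with genes on the other strand make up 32.3% of TIMM8B, with SDHD and NKAPD1, and 30.5% of TIMM9, with TOMM20L, KIAA0586 and AL139021.1. Of TIMM10B, 13.5% of the exonic bases are shared on its own strand with AC084337.2, which had 0 counts in all 6 libraries.

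**Figure D2:**
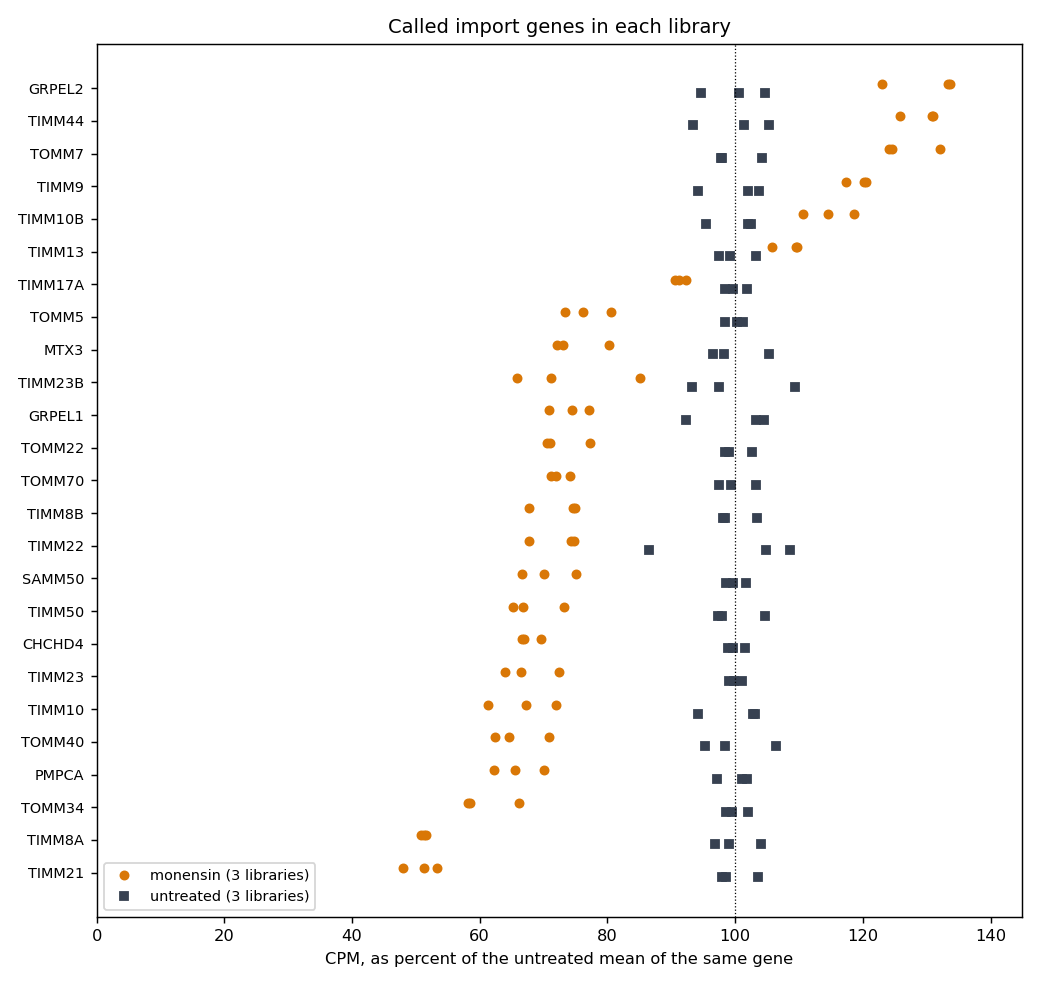
CPM of the 25 called import genes in each of the 3 monensin and 3 untreated libraries, as a percentage of the untreated mean of the same gene, ordered by log2 fold change. GRPEL2 is at the top and TIMM21 at the bottom, and for none of the 25 do the groups overlap.

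The TIM22 translocase inserts multi-span carrier proteins into the inner membrane. Its channel gene TIMM22 fell, with 12.1, 13.3 and 13.2 CPM in the monensin libraries, against 19.4, 18.7 and 15.4 CPM in the untreated libraries (log2 fold change -0.47, SE 0.088, adjusted p = 0.000205). Untreated library 3 was the lowest of its group, at 15.4 CPM, and still above all monensin libraries. TIMM29, a scaffold subunit of the human complex, had 27.2, 26.1 and 26.6 CPM in the monensin libraries, against 29.2, 27.5 and 28.9 CPM in the untreated libraries; its groups did not overlap, but it was not called (log2 fold change -0.10, SE 0.057, adjusted p = 0.125). With GC and length trends removed TIMM29 was called lowered, at a log2 fold change of -0.38 (adjusted p = 8.59e-06).

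The TIM23 translocase carries presequence proteins across or into the inner membrane, and 5 of its 6 genes fell. TIMM21, which links TIM23 to the outer membrane and to respiratory chain assembly, fell by about as much as TIMM8A, whose log2 fold change differed from it by less than the SE of either. TIMM21 had 24.4, 27.2 and 26.1 CPM in the monensin libraries, against 52.8, 50.2 and 49.9 CPM in the untreated libraries (log2 fold change -0.98, SE 0.058, adjusted p = 6.95e-10), at 50.8% of the untreated level. TIMM23, the channel subunit, had 55.0, 57.1 and 62.2 CPM in the monensin libraries, against 86.9, 85.7 and 85.1 CPM in the untreated libraries (log2 fold change -0.57, SE 0.052, adjusted p = 1.16e-07), and TIMM50, the receptor that hands over presequences, had 71.2, 72.9 and 79.9 CPM in the monensin libraries, against 114, 106 and 107 CPM in the untreated libraries (log2 fold change -0.55, SE 0.053, adjusted p = 1.85e-07). For these 3 genes the groups stood apart. TIMM23B, a near-identical copy of TIMM23, had 3.97, 4.76 and 3.68 CPM in the monensin libraries, against 5.21, 5.45 and 6.11 CPM in the untreated libraries (log2 fold change -0.43, SE 0.13, adjusted p = 0.00675); counts of both copies are uncertain because reads that match both may be lost or split.

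TIMM17A and TIMM17B are alternative subunits of the TIM23 translocase. TIMM17A, known as a short-lived subunit whose synthesis falls under stress, had 151, 152 and 154 CPM in the monensin libraries, against 166, 169.9 and 164 CPM in the untreated libraries (log2 fold change -0.13, SE 0.040, adjusted p = 0.00917). The groups did not overlap, with monensin libraries at 91.4% of the untreated level, but the call was lost under total counts (log2 fold change -0.044, adjusted p = 0.323) and with GC and length trends removed (0.0091, adjusted p = 0.826). TIMM17B had 55.8, 59.2 and 63.6 CPM in the monensin libraries, against 59.3, 51.4 and 55.5 CPM in the untreated libraries and overlapping groups (log2 fold change 0.10, SE 0.062, adjusted p = 0.158). TIMM17B was called raised under total counts (0.19, adjusted p = 0.0138) and lowered with GC and length trends removed (-0.11, adjusted p = 0.0412).

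The import motor pulls proteins into the matrix with the ATPase HSPA9, and the median log2 fold change of its 5 genes was 0.02, the value of PAM16. Of these, TIMM44 and GRPEL2 rose and GRPEL1 fell. TIMM44, which tethers HSPA9 to the channel, had 81.1, 78.0 and 81.2 CPM in the monensin libraries, against 65.2, 62.8 and 57.9 CPM in the untreated libraries (log2 fold change 0.37, SE 0.052, adjusted p = 1.32e-05). GRPEL2 and GRPEL1 are nucleotide exchange factors of HSPA9. GRPEL2 had 49.0, 48.8 and 45.1 CPM in the monensin libraries, against 34.7, 38.3 and 36.9 CPM in the untreated libraries (log2 fold change 0.38, SE 0.058, adjusted p = 2.71e-05), and GRPEL1 had 51.1, 53.8 and 55.7 CPM in the monensin libraries, against 74.5, 75.5 and 66.6 CPM in the untreated libraries (log2 fold change -0.43, SE 0.057, adjusted p = 6.76e-06). The libraries of each gene stood apart by group, in opposite directions. With GC and length trends removed the rise was 0.18 for TIMM44 and 0.58 for GRPEL2, both still called. PAM16 and DNAJC19, a J-like and a J-domain cochaperone that regulate HSPA9, were not called. PAM16 had 7.59 ± 0.565 CPM in the monensin libraries and 7.47 ± 1.16 CPM in the untreated libraries, and DNAJC19 had 23.1 ± 0.480 CPM in the monensin libraries and 25.2 ± 1.26 CPM in the untreated libraries (SD, n = 3). DNAJC19 groups did not overlap (log2 fold change -0.13, SE 0.061, adjusted p = 0.0791), and without untreated library 3 it was called lowered (-0.18, adjusted p = 0.0277). Of PAM16's exonic bases, 21.9% are shared with the read-through gene CORO7-PAM16 on its strand.

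Of the processing peptidase that cuts off presequences, the regulatory subunit PMPCA fell and the catalytic subunit PMPCB was not called. PMPCA had 96.6, 91.6 and 103 CPM in the monensin libraries, against 149, 150.0 and 143 CPM in the untreated libraries (log2 fold change -0.60, SE 0.049, adjusted p = 2.76e-08), at 65.9% of the untreated level and with no overlap between the groups. PMPCB had 65.2, 66.4 and 68.7 CPM in the monensin libraries, against 70.1, 70.5 and 67.6 CPM in the untreated libraries and overlapping groups (log2 fold change -0.056, SE 0.047, adjusted p = 0.302, 95% interval from -0.16 to 0.044). With GC and length trends removed PMPCB was called raised, at a log2 fold change of 0.14 (adjusted p = 0.0117). No direct test of PMPCA against PMPCB was made.

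The machinery holds several pairs of related genes, and the ratio within a library compares their members without any scaling between libraries, though not without trends over GC content and length. For 6 of 7 pairs the log2 ratio did not overlap between the groups (two-sided exact permutation p = 0.1 for each, the smallest that 3 libraries against 3 allow; 0.117 after Benjamini-Hochberg adjustment over the 7 pairs), so none passes a threshold of 0.05. The share of other gene pairs whose ratios do not overlap is not given here, while of all single tested genes 71.1% did not overlap. The count of pairs is therefore not read as a result about these pairs. The ratio of GRPEL1 to GRPEL2 differed by -0.81 on the log2 scale and that of TIMM10 to TIMM10B by -0.78. The GRPEL1 to GRPEL2 log2 ratios were 0.062, 0.14 and 0.31 in the monensin libraries, against 1.10, 0.98 and 0.85 in the untreated libraries, which corresponds to 1.12 in monensin and 1.97 in untreated libraries. TIMM10 over TIMM10B had log2 ratios of -0.40, -0.22 and -0.069 in the monensin libraries, against 0.56, 0.56 and 0.53 in the untreated libraries. TIMM10B therefore held more counts than TIMM10 in all monensin libraries and fewer in all untreated libraries.

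The log2 ratio of TOMM40 to TOMM40L was 0.99, 1.02 and 1.06 in the monensin libraries, against 1.76, 1.68 and 1.57 in the untreated libraries, a difference of -0.65. TIMM8A over TIMM8B gave -1.05, -1.19 and -1.20 in the monensin libraries, against -0.64, -0.67 and -0.63 in the untreated libraries. The difference was -0.50, between 2 genes that both fell. TIMM17A over TIMM17B gave 1.44, 1.36 and 1.28 in the monensin libraries, against 1.49, 1.73 and 1.56 in the untreated libraries, a difference of -0.23. MTX1 over MTX3 went the other way, with -0.88, -1.14 and -0.59 in the monensin libraries, against -1.18, -1.24 and -1.42 in the untreated libraries and a difference of 0.41. The seventh pair, TIMM23 over TIMM23B, had overlapping log2 ratios of 3.79, 3.58 and 4.08 in the monensin libraries, against 4.06, 3.98 and 3.80 in the untreated libraries (exact permutation p = 0.6). In a setting added for the pairs after seeing the data, with GC and length trends removed, 2 of the 7 differences turned. The difference was 0.12 for TIMM17A over TIMM17B and -0.0090 for MTX1 over MTX3, whose longest transcripts have 55.3% and 36.7% GC. For the other pairs it was -0.97 for GRPEL1 over GRPEL2, -0.99 for TIMM10 over TIMM10B, -0.35 for TIMM8A over TIMM8B, -0.70 for TOMM40 over TOMM40L and -0.30 for TIMM23 over TIMM23B. TOMM20 and TOMM20L were left out because TOMM20L had 0 counts in a library.

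**Figure D3:**
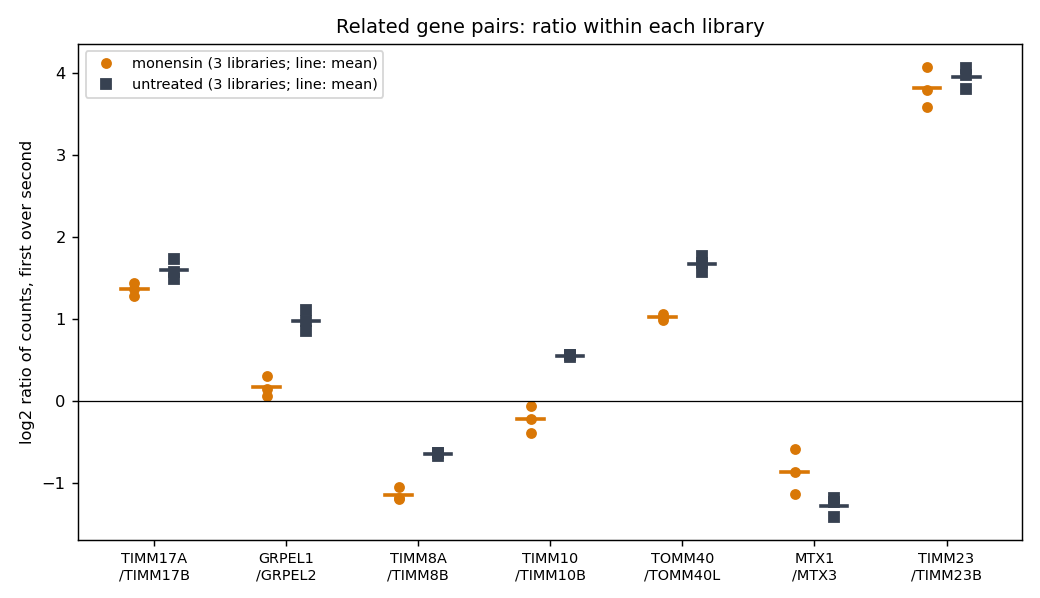
Log2 ratio of the counts of the first gene over the second in each library, for 7 pairs, with monensin left of untreated and lines at the group means. The GRPEL1/GRPEL2 ratio averages 0.17 in monensin and 0.98 in untreated libraries, and TIMM23/TIMM23B is the pair whose groups overlap.

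Per unit of exonic length, the members spanned a wide range of levels. Levels as TPM, which scale counts by gene length and library, were computed over the union of annotated exons. For single genes they are compared here between genes, not between groups. TOMM20 was the highest, at 618 ± 10.9 TPM in the monensin libraries and 541 ± 23.3 TPM in the untreated libraries. In untreated libraries TIMM23, TOMM40, TIMM10 and TOMM22 followed, between 233 and 210 TPM, and the ranges of mean ± SD of neighbours in that order overlapped. TOMM7 stood second in the monensin libraries and sixth in the untreated libraries, at 276 ± 3.93 TPM in the monensin libraries and 190.2 ± 4.90 TPM in the untreated libraries. TIMM23B and TOMM5 were the lowest of the tested members in both groups, below 7 TPM, and both counts are uncertain for the shared sequence given above. The receptor TOMM70 stood well below TOMM20, at 77.0 ± 3.30 TPM in the monensin libraries and 93.0 ± 2.38 TPM in the untreated libraries.

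The GC content of the longest transcript was 36.7% to 63.6% among the members, with a median of 46.3% over the tested ones. Removing the trends over GC content and length shifted TIMM13, GFER and TIMM29, the 3 tested members with the highest GC content, by -0.31, -0.28 and -0.28 on the log2 scale. The 3 with the lowest GC content, MTX3, DNAJC19 and GRPEL2, shifted by 0.25, 0.17 and 0.20. After that step 7 members were called raised and 22 lowered. The shares of all tested genes in that fit are not given here. Their counts stayed within 1.5 times those of the reported fit, in which 34.1% were raised and 33.7% lowered. The 7 and 22 are therefore not read as a result about the members. The 5 raised genes TOMM7, TIMM9, TIMM10B, GRPEL2 and TIMM44 and 17 of the lowered genes had the same direction and call in all 16 alternatives. The 2 lowered genes that did not are TIMM17A and TOMM5.

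**Figure D4:**
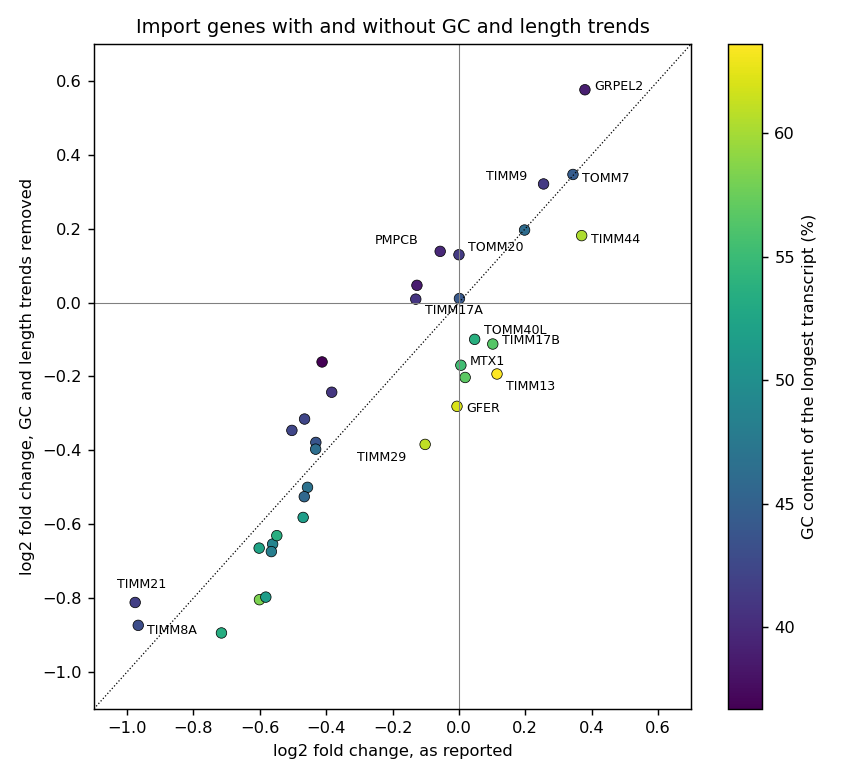
Log2 fold change of the 35 tested import genes as reported (x axis) and with GC and length trends removed (y axis), coloured by GC content of the longest transcript; the dotted line marks equal values. Genes of high GC content such as TIMM13, TIMM29 and GFER lie below the line, and PMPCB, TOMM20 and GRPEL2 lie above it.

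Accessory genes of import were read from 6 lists, and each of those named below was called at an adjusted p under 0.05 by edgeR unless stated. Of 61 tested accessory genes 36 fell (59.0%) and 12 rose (19.7%), and the median of their log2 fold changes was -0.23, against 33.7% lowered and 34.1% raised over all genes. HSPA9, the ATPase of the motor, which is named after its values were seen, had 753 ± 7.82 CPM in the monensin libraries and 703 ± 14.9 CPM in the untreated libraries (SD, n = 3). It was called raised (log2 fold change 0.10, SE 0.036, adjusted p = 0.0242), but the call was lost in 9 of 16 alternatives, with adjusted p up to 0.146. Among these were the fits without monensin library 1 (adjusted p = 0.0637), monensin library 2 (0.109) and untreated libraries 1, 2 and 3 (0.0625, 0.0529 and 0.123). The log2 fold change of HSPA9 was 0.19 under total counts and 0.24 with GC and length trends removed. In the list of 9 import accessory genes that holds HSPA9, 4 rose and 4 fell, and HSPA9 is among the 4 that rose. OXA1L, which inserts proteins from the matrix side, rose by 0.31 on the log2 scale (SE 0.040), while the log2 fold change of AGK, a subunit of the TIM22 complex, was -0.46 (SE 0.068) and that of MTCH2, an outer membrane insertase, -0.30 (SE 0.044).

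Of 6 further peptidases that trim or degrade presequences 4 fell and 2 rose, with a median of -0.55. MIPEP, which removes a further short peptide after the processing peptidase, had 7.25, 7.40 and 7.37 CPM in the monensin libraries, against 13.1, 14.9 and 13.3 CPM in the untreated libraries (log2 fold change -0.91, SE 0.083, adjusted p = 1.08e-07). The log2 fold change of PITRM1, which degrades the cut presequences, was -0.63 (SE 0.045) and that of IMMP2L, an inner membrane peptidase, -0.79 (SE 0.10). These 3 genes were lower in every monensin library.

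Of 14 genes of cytosolic delivery 10 fell and 4 rose. The log2 fold change of the chaperone gene HSP90AA1 was -0.49 (SE 0.040) and that of UBQLN1, a ubiquilin that binds membrane proteins in the cytosol, -0.38 (SE 0.045; -0.13 with GC and length trends removed), while NACA, a subunit of the nascent chain complex at the ribosome, rose by 0.44 (SE 0.041). Of 8 tested genes of import quality control 5 fell and LONP1 rose. LONP1, the main protease of the matrix, had 382, 373 and 385 CPM in the monensin libraries, against 220.0, 216 and 215 CPM in the untreated libraries (log2 fold change 0.81, SE 0.038, adjusted p = 4.97e-11), as reported the largest rise among members and accessory genes. With GC and length trends removed the log2 fold change of LONP1 was 0.59. That of GRPEL2 was then 0.58 (SE 0.046), so LONP1 differed from it by less than this SE. ATAD1, which extracts stalled proteins from the outer membrane, had a log2 fold change of -0.52 (SE 0.056; -0.30 with GC and length trends removed), and PINK1, a kinase that accumulates where import fails, -0.42 (SE 0.061).

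The MICOS and bridging genes, which hold the inner membrane folds and link them to SAM, fell in 6 of 8 members and rose in 0, with a median of -0.24. The log2 fold change was -0.51 for DNAJC11 (SE 0.047), -0.45 for IMMT (SE 0.044) and -0.39 for CHCHD3 (SE 0.044). CHCHD6 and APOO were not called (adjusted p = 0.148 and 0.0512). Of 16 substrates of the CHCHD4 relay 7 fell, COX19 rose and 8 were not called, with a median of -0.09. NDUFS5, a subunit of complex I, had 73.5, 78.7 and 89.7 CPM in the monensin libraries, against 129.9, 124 and 119 CPM in the untreated libraries (log2 fold change -0.62, SE 0.063, adjusted p = 3.04e-07). The log2 fold change of CMC2 was -0.58 (SE 0.081; -0.36 with GC and length trends removed) and that of TRIAP1 -0.51 (SE 0.060). COX19, a copper-related assembly factor of cytochrome oxidase, rose by 0.49 on the log2 scale (SE 0.052). It was named after its values were seen, as were CHCHD6 and APOO.

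**Figure D5:**
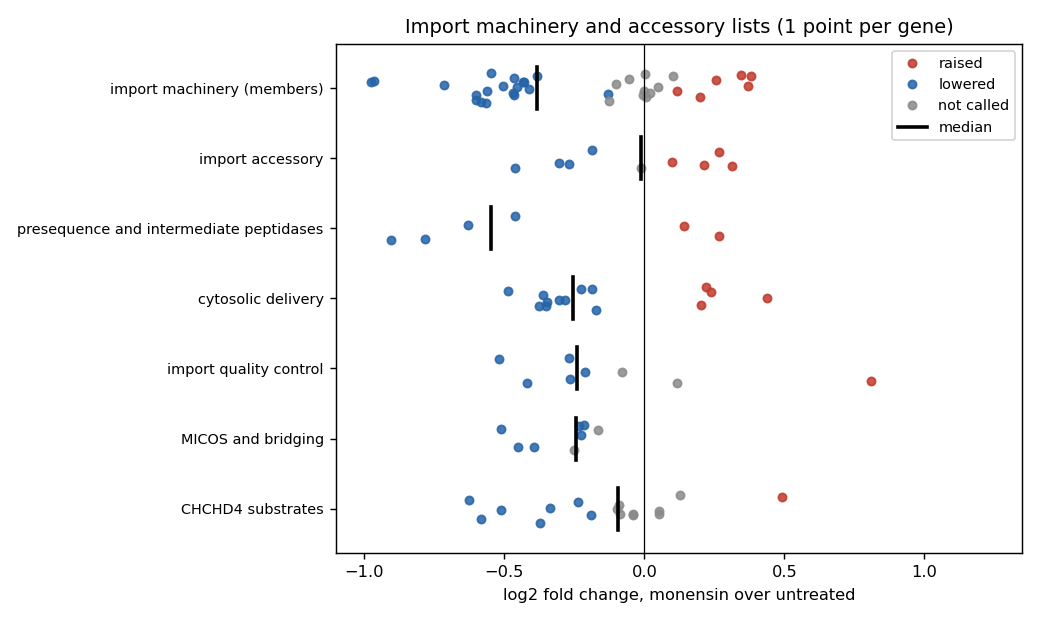
Log2 fold change of each tested gene for the import machinery and 6 accessory lists, 1 point per gene, with the median of each list as a black line and colour for the edgeR call. The import machinery has a median of -0.38, the peptidase list the lowest median at -0.55, and LONP1 in the quality control list the highest value at 0.81.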

How the data were processed

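Each library has a file of counts per Ensembl gene, not normalized and with the tally lines of HTSeq, which the authors deposited with a list of log2 fold changes of regulated genes. Per the labels, RNA was extracted with Trizol, and directional libraries were read as single reads of 75 nt on a NextSeq. Per the submitters' processing notes the tools include HTSeq 0.11.1, DESeq2 1.22.2, HISAT2 2.1.0 and Trimmomatic 038, with the build GRCh38 (hg38). The sources used here give neither the annotation release nor the strand setting. The 5 HTSeq tally lines, between 19.1% and 22.0% of tallied alignments per library, were left out of library sizes and tests.

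Counts were tested with edgeR 4.0.16 (R 4.3.3) and its quasi-likelihood test, after filterByExpr and TMM scaling, with treatment as the only term; adjusted p is Benjamini-Hochberg over 16542 genes. Standard errors were derived from each coefficient and its F value. Positions, exonic lengths and GC content come from GENCODE 29, which holds all 37 members. Every member is described by role group; accessory genes are the up to 3 per list with the largest absolute change at an average log2 CPM of at least 2. The members and lists were chosen with earlier results of these data known. Alternatives were RLE factors, total counts alone, no mitochondrial chromosome, no filter, a filter at 1 CPM in at least 3 libraries with 50 counts in total, a replicate block, DESeq2 1.42.0, an adjusted p under 0.01, GC and length trends removed as offsets with and without the block, and each library left out in turn. The test was tried on simulated data. No libraries were identical, and chi-square per degree of freedom between replicates ran from 1.93 to 5.09. Protein sequences were not used here.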

Additional observations from a re-analysis of the deposited data

How the results depend on the processing

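The counts of members raised (5 to 9) and lowered (18 to 22), of accessory genes and of all genes stayed within 1.5 times those reported in all 16 alternatives; leaving out each library in turn gave 5 to 6 members raised and 19 to 20 lowered. The median log2 fold change of the members was -0.30 under total counts, -0.28 with GC and length trends removed and -0.28 when the replicate block was added to that; without single libraries it ran from -0.40 to -0.35. Total counts gave a median of 0.11 over all tested genes, against 0.02 as reported. The numbers of the replicates gave no clear sign of a pairing: correlations of their deviations were -0.12, 0.14 and 0.041 for numbers 1, 2 and 3, and not every library correlated best with its own number. With 3 libraries per group this cannot exclude a pairing. With the replicate block 5 members were raised and 19 lowered, and TIMM13 and HSPA9 lost their calls. Sign changes were seen for 11 members near 0, of which TIMM13 and TIMM17A were called. With RLE factors the log2 fold change was -0.010 for TOMM20, -0.0043 for MTX1 and -0.0083 for MTX2. Under total counts it was 0.080 for GFER and 0.029 for PMPCB. Without the mitochondrial chromosome it was -0.00082 for TOMM20. Without a filter it was -0.022 for TOMM20, -0.016 for MTX1, -0.020 for MTX2 and -0.0027 for PAM16. With the stricter filter it was 0.012 for GFER. With DESeq2 it was -0.029 for TOMM20, -0.022 for MTX1, -0.027 for MTX2 and -0.0077 for PAM16. With GC and length trends removed it was -0.10 for TOMM40L, -0.17 for MTX1, -0.19 for TIMM13, -0.11 for TIMM17B, 0.0091 for TIMM17A, -0.20 for PAM16, 0.047 for DNAJC19 and 0.14 for PMPCB. With the replicate block added to that it was -0.10 for TOMM40L, -0.17 for MTX1, -0.19 for TIMM13, -0.11 for TIMM17B, 0.0090 for TIMM17A, -0.20 for PAM16, 0.047 for DNAJC19 and 0.14 for PMPCB. Without single libraries it ran from -0.054 to 0.029 for GFER, from -0.11 to 0.086 for MTX1, from -0.027 to 0.013 for MTX2, from -0.10 to 0.12 for PAM16 and from -0.032 to 0.011 for TOMM20. For the pairs, with GC and length trends removed (added after seeing the data), the difference of log2 ratios turned to 0.12 for TIMM17A over TIMM17B and -0.0090 for MTX1 over MTX3. The causes of these changes were not tested. Genes with few counts, such as TOMM5 and TIMM23B, had wider errors, and TOMM6 and TOMM20L could not be measured at this depth and with this counting.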

Other observations

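Of 17 rows named as pseudogenes of TIMM and TOMM genes, 9 held at least 1 count over the 6 libraries. TIMM8AP1, a pseudogene of TIMM8A, had 8, 1 and 2 counts in the monensin libraries, against 18, 20 and 10 counts in the untreated libraries, and the authors' deposited table gives it a log2 fold change of -2.18. TIMM8A itself had 13.8, 13.9 and 13.7 CPM in the monensin libraries, against 28.1, 26.2 and 26.7 CPM in the untreated libraries, so the gene and the copy were both lower in every monensin library. Reads from one may be counted at the other. TOMM20P4, a copy of TOMM20, had the highest total of these rows, with 39, 26 and 25 counts in the monensin libraries and 21, 19 and 26 counts in the untreated libraries.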
